A study of Sus scrofa with 3 samples.

Results

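The enzymes by which the kidney makes glucose were followed in the kidney transcriptome of Wuzhishan pigs, a Chinese miniature breed. The members were chosen by symbol, as the rows of the deposited count table named PCK1, PCK2, FBP1, G6PC, PC, GLUD1, LDHB or KHK. Of these 8 genes, 7 were found among the 34570 genes of the table, and all 7 were among the 15472 genes compared. G6PC, the catalytic subunit of glucose-6-phosphatase, was not analysed here. The pigs were 6 to 7 months old and all were fed a diet high in fat and cholesterol, controls included. The 3 groups were males left intact (IM), males that had been castrated (CM), and castrates that received testosterone replacement (CMT). For the testosterone dose and the interval since castration, the labels used here give no value. RNA from the kidneys of 3 pigs per group was mixed in equal amounts and made into 1 library, so that 3 libraries stand for 9 pigs.

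With 1 library per group there is no spread between pigs and no test. No difference has a replicate check, and the comparisons are of pooled libraries. Library totals were 16459771 counts in IM, 18503537 in CM and 13601475 in CMT. Levels are given as CPM, counts scaled to a common library size of 1e6 by TMM, which corrects each total for genes that shift its composition. A fold is the ratio of 2 such levels, followed in brackets by its exact 95% interval, which covers counting error only. To be called, a gene had to have this whole interval beyond 2-fold. Transcript lengths were not used here, so levels are compared between libraries and not between genes.

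Gluconeogenesis makes glucose from lactate, glutamine, glycerol and other precursors, and besides the liver the kidney is the organ known for it. In the kidney it takes place in the proximal tubule, where lactate and glutamine are the main precursors and where the use of glutamine also yields the ammonia that carries acid into the urine. Pyruvate carboxylase and phosphoenolpyruvate carboxykinase bypass the irreversible pyruvate kinase step, fructose-1,6-bisphosphatase bypasses phosphofructokinase, and glucose-6-phosphatase releases free glucose. Transcription of PCK1 is known to respond to cyclic AMP, glucocorticoid and, in the kidney, acidosis, whereas PCK2 is known as a gene of the amino acid and stress response in several cell types.

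The 2 carboxykinase genes had different profiles over the libraries, and PCK1 was the only called member. PCK1 encodes the cytosolic enzyme, often described as rate-limiting. It stood at 6824 CPM in IM (112992 counts), 5387 CPM in CM (101824 counts) and 13703 CPM in CMT (181368 counts). CMT was thus highest and CM lowest. CMT was called above CM, by 2.54-fold (2.52 to 2.56). Scaled by total counts this fold was 2.42 (2.40 to 2.44), outside that interval, which does not cover the choice of scaling. Against IM, CMT stood at 2.01-fold (1.99 to 2.02), so that the interval ended just inside the 2-fold limit. This call turned with the scaling, since median-of-ratios size factors gave 2.02-fold (2.01 to 2.04), which passes. CM stood below IM by 1.27-fold (1.26 to 1.28) and was not called. By scaled counts PCK1 ranked 7 among all genes of the table.

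PCK2, which encodes the mitochondrial carboxykinase, was highest in CM. It stood at 720 CPM in IM (11920 counts), 1237 CPM in CM (23391 counts) and 903 CPM in CMT (11949 counts). CM exceeded IM by 1.72-fold (1.68 to 1.76) and CMT by 1.37-fold (1.34 to 1.40), neither of which was called at 2-fold. CMT stood at 1.25-fold over IM (1.22 to 1.29). CM was therefore the library with the lowest PCK1 and the highest PCK2. Summed over both genes, carboxykinase counts came to 7544 CPM in IM, 6624 CPM in CM and 14606 CPM in CMT.

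**Figure D1:**
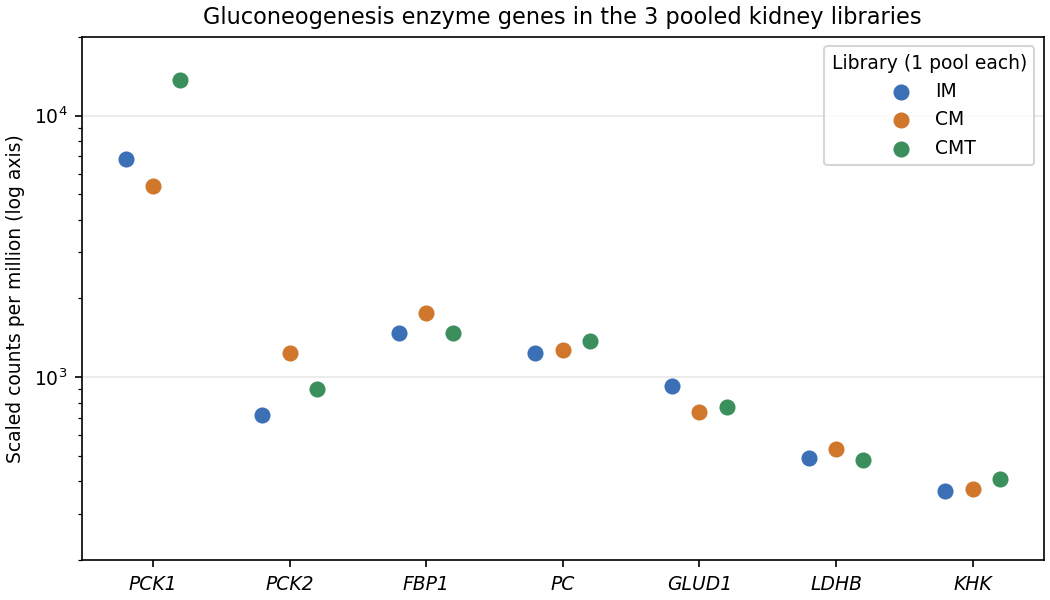
Level of each of the 7 gluconeogenesis enzyme genes, in TMM-scaled CPM on a log axis, in the pooled libraries of intact (IM), castrated (CM) and testosterone-replaced castrated (CMT) pigs. Each point is 1 library of 3 pigs, without replicates; PCK1 lies at 13703 CPM in CMT against 5387 CPM in CM, while PCK2 is highest in CM at 1237 CPM.

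The change in balance between the carboxykinases was also read from their ratio within each library, in which the scaling cancels. There were 9.48 counts of PCK1 per count of PCK2 in IM, 4.35 in CM and 15.2 in CMT. The value of such a ratio depends on transcript length, and its difference between libraries does not. The ratio in CM lay below that of IM by 2.18-fold (2.13 to 2.23), and CMT lay above CM by 3.49-fold (3.41 to 3.57). CMT also lay above IM, by 1.60-fold (1.56 to 1.64). The intervals again hold counting error only.

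The genes of the other bypass steps lay closer together. FBP1 encodes fructose-1,6-bisphosphatase, which removes a phosphate from fructose-1,6-bisphosphate. It stood at 1472 CPM in IM (24376 counts), 1760 CPM in CM (33276 counts) and 1472 CPM in CMT (19484 counts). Under TMM, IM and CMT could not be told apart by counting (0.9999-fold, 0.981 to 1.02), and CM was 1.20-fold above IM (1.18 to 1.22). PC, the mitochondrial pyruvate carboxylase that makes oxaloacetate from pyruvate, stood at 1235 CPM in IM (20454 counts), 1269 CPM in CM (23989 counts) and 1370 CPM in CMT (18129 counts). From the lowest to the highest library PC differed by 1.11-fold (1.09 to 1.13).

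The members by which precursors enter the pathway, GLUD1, LDHB and KHK, each likewise stayed within 1.5-fold over the 3 libraries. GLUD1 encodes glutamate dehydrogenase, which turns glutamate into 2-oxoglutarate and ammonia. It stood at 924 CPM in IM (15307 counts), 737 CPM in CM (13934 counts) and 767 CPM in CMT (10156 counts). IM was highest, 1.25-fold above CM (1.23 to 1.28) and 1.20-fold above CMT (1.17 to 1.24). CM and CMT differed by 1.04-fold (1.01 to 1.07), and their order changed when libraries were scaled by total counts alone (log2 fold of -0.01 for CMT over CM).

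LDHB, the heart-type lactate dehydrogenase subunit, stood at 493 CPM in IM (8155 counts), 531 CPM in CM (10044 counts) and 484 CPM in CMT (6400 counts). CM lay above CMT by 1.10-fold (1.06 to 1.13). Under TMM, IM and CMT could not be told apart by counting (1.02-fold for IM over CMT, 0.986 to 1.05). KHK encodes ketohexokinase, which phosphorylates fructose and so lets it enter below the phosphofructokinase step. It stood at 368 CPM in IM (6099 counts), 374 CPM in CM (7068 counts) and 407 CPM in CMT (5389 counts). CMT was the highest library, 1.11-fold above IM (1.07 to 1.15). Under TMM, CM and IM could not be told apart by counting (1.02-fold, 0.981 to 1.05). With these depths a difference of a few percent exceeds counting error, yet no spread between pigs is known against which to read it.

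**Figure D2:**
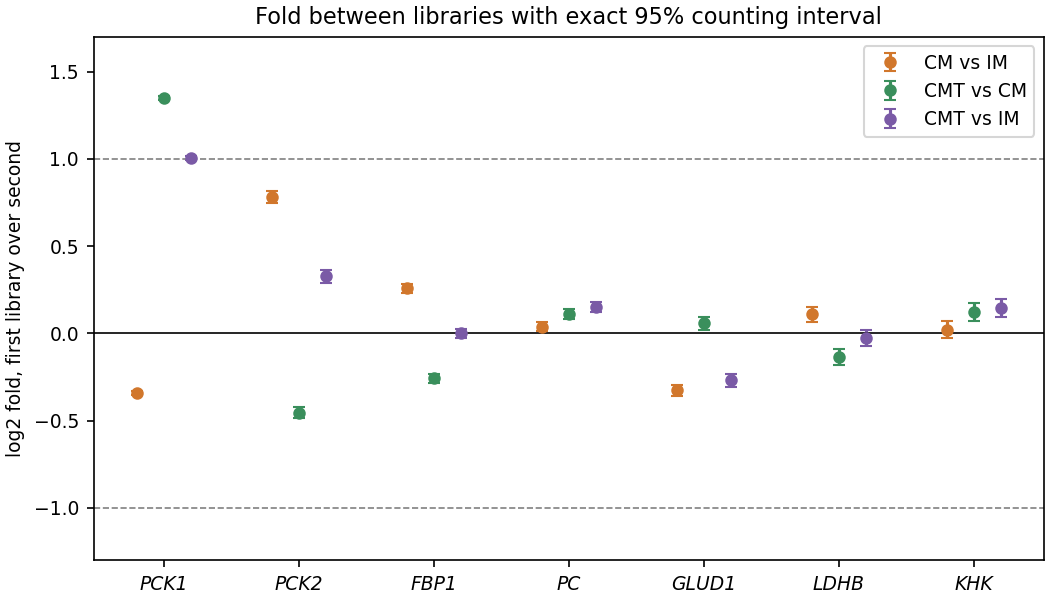
log2 fold of the 7 genes for CM over IM, CMT over CM and CMT over IM, with exact 95% counting intervals; dashed lines mark 2-fold. PCK1 in CMT over CM (2.54-fold) is the value whose whole interval lies beyond a dashed line, and PCK2 in CM over IM (1.72-fold) comes next among the members other than PCK1.

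The members' calls were set beside those of all genes compared. For CM against IM 0 of 7 were called, beside 1.20% of all genes upward and 1.52% downward. CMT against CM gave 1 call of 7, upward, beside 1.84% of all genes upward and 1.11% downward. CMT against IM again gave 0 of 7, beside 0.905% upward and 0.595% downward. With the limit set at 1.5-fold in place of 2-fold, the call for CM over IM was PCK2 (background 2.81% upward, 3.42% downward). PCK1 alone was called for CMT over CM (3.68% upward, 2.61% downward) and for CMT over IM (2.30% upward, 1.44% downward). Members had a median log2 fold of 0.04, 0.06 and 0.14 in these 3 comparisons, against -0.01, 0.00 and -0.01 for all genes compared. The comparisons share libraries, so that a low or high value in CM enters 2 of them with opposite sign. For PCK1 in CMT over CM, 3.48% of all genes lay as far from 0 or farther on the log2 scale, and 3.08% of the 1719 genes with a mean of at least 100 CPM did. For PCK2 in CM over IM these shares were 10% and 7.27%.

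The 7 genes together took 1.21% of counts in IM (exact binomial 95% interval 1.21 to 1.22), 1.15% in CM (1.15 to 1.16) and 1.86% in CMT (1.85 to 1.87). Without PCK1 they summed to 5213, 5909 and 5403 CPM in IM, CM and CMT. The higher sum in CMT was thus held by PCK1, and the other 6 genes together were highest in CM.

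Members other than KHK were also set against the gene of an opposing, parallel or neighbouring step in the same library. PCK1 per count of PC was 5.52 in IM, 4.24 in CM and 10.004 in CMT, which puts CMT 2.36-fold above CM (2.31 to 2.41). PCK1 per count of FBP1 was 4.64, 3.06 and 9.31, so that CMT lay 3.04-fold above CM (2.98 to 3.10). PCK1 therefore moved apart from both genes.

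FBP1 opposes phosphofructokinase, whose muscle, liver and platelet subunits are encoded by PFKM, PFKL and PFKP. FBP1 per count of PFKM in CM was 1.42-fold that in IM (1.304 to 1.54). Per count of PFKL it was 1.04-fold (0.990 to 1.09), and per count of PFKP 1.17-fold (1.07 to 1.29). From CM to CMT it was lower against all 3 subunits, by 1.302-fold for PFKM (1.19 to 1.42), 1.26-fold for PFKL (1.20 to 1.33) and 1.23-fold for PFKP (1.11 to 1.35). These are small differences, and the counts of the 3 subunits are far lower than those of FBP1.

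LDHB per count of LDHA, the muscle-type subunit, was 10.9 in IM, 14.1 in CM and 16.3 in CMT, with CMT above IM by 1.5-fold (1.32 to 1.71). LDHA itself stood at 45.2, 37.6 and 29.6 CPM in IM, CM and CMT. The ratio with LDHA thus moved more than LDHB did.

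PC competes with pyruvate dehydrogenase for pyruvate. Per count of PDHA1, a subunit of that complex, PC in CM was 1.5-fold above IM (1.47 to 1.53), and in CMT it lay 1.303-fold below CM (1.27 to 1.33). PDHA1 stood at 3798 CPM in IM, 2601 CPM in CM and 3658 CPM in CMT, with CM lowest, whereas PC was not lowest in CM.

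**Figure D3:**
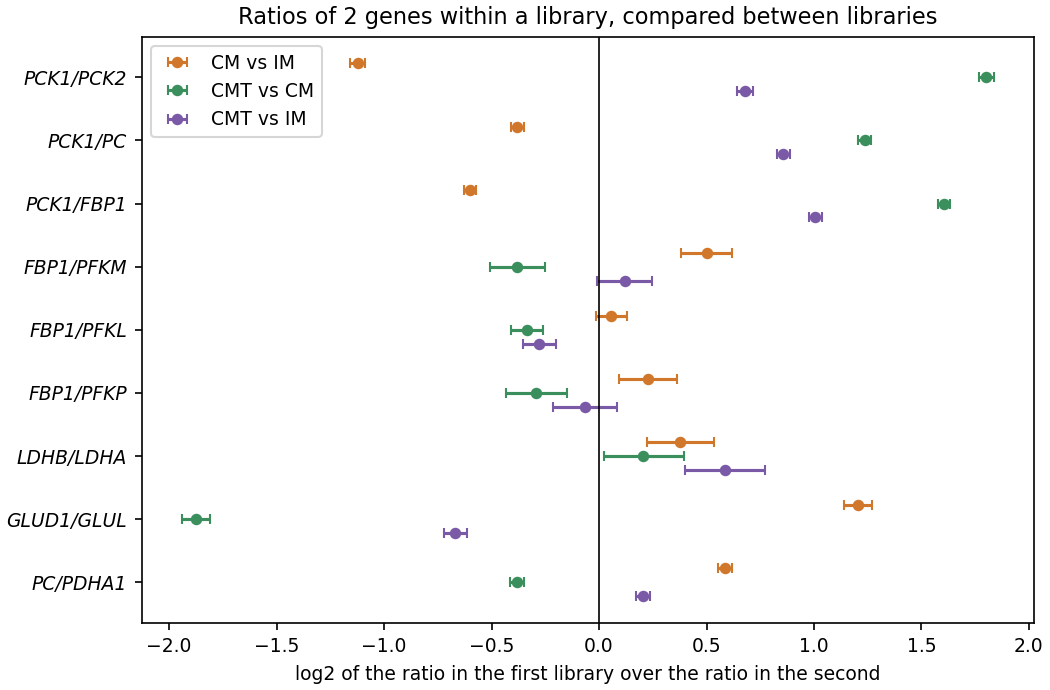
Ratio of the counts of 2 genes within a library, compared between libraries on a log2 scale, with exact conditional 95% intervals for counting error; 0 means the same ratio in both libraries. For PCK1 to PCK2, CM lies 2.18-fold below IM and CMT 3.49-fold above CM; for GLUD1 to GLUL, CM lies 2.31-fold above IM.

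Most of the 13 compared genes of glutamine transport and ammonia handling differed more between the libraries than GLUD1 did, GLUL and SLC38A3 the most. Only SLC1A1, RHCG and SLC9A3 differed less. GLUL, the glutamine synthetase that runs opposite to glutamine breakdown, stood at 584 CPM in IM (9668 counts), 202 CPM in CM (3816 counts) and 770 CPM in CMT (10194 counts). CM was called lower than IM, by 2.89-fold (2.79 to 3.004), and CMT was called higher than CM, by 3.82-fold (3.68 to 3.96). SLC38A3, the basolateral glutamine transporter SNAT3 of the proximal tubule, stood at 299 CPM in IM (4954 counts), 137 CPM in CM (2597 counts) and 287 CPM in CMT (3800 counts). CM was called lower than IM (2.18-fold, 2.08 to 2.28), and CMT over CM fell short at 2.09-fold (1.99 to 2.20). CM was the lowest library for both genes.

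Of 13 compared genes in that list, CM against IM gave 0 higher and 2 lower calls, at a median log2 fold of -0.38 and with values from -1.53 (GLUL) to 0.49 (GPT). CMT against CM gave 1 higher and 0 lower calls, at a median of 0.13 and with values from -0.28 (ASNS) to 1.93 (GLUL). In CMT against IM none of the 13 was called, and values ran from a log2 fold of -0.51 (SLC4A4) to 0.55 (SLC25A22). GLUD1 per count of GLUL was 1.58 in IM, 3.65 in CM and 0.996 in CMT, so that CM lay 2.31-fold above IM (2.21 to 2.41) and CMT 3.67-fold below CM (3.503 to 3.84).

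Genes for the entry and fate of lactate and pyruvate held calls in each comparison. PDK4, a kinase that shuts off pyruvate dehydrogenase and so spares pyruvate, stood at 106 CPM in IM (1753 counts), 40.7 CPM in CM (770 counts) and 374 CPM in CMT (4952 counts). CMT exceeded CM by 9.19-fold (8.51 to 9.92) and IM by 3.53-fold (3.35 to 3.73), and CM lay below IM by 2.60-fold (2.39 to 2.83). The order of the libraries, CMT over IM over CM, was that of PCK1.

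PDHB, another subunit of pyruvate dehydrogenase, stood at 213 CPM in IM (3532 counts), 142 CPM in CM (2689 counts) and 773 CPM in CMT (10236 counts). CMT exceeded CM by 5.44-fold (5.21 to 5.67) and IM by 3.63-fold (3.49 to 3.77). Its partner PDHA1 was not called, and other components of the complex did not share the high CMT value: DLAT stood at 86.0, 66.7 and 73.2 CPM and PDHX at 51.6, 44.2 and 41.7 CPM in IM, CM and CMT.

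Of the lactate transporters, SLC5A8 had 2 counts in IM, 489 in CM and 31 in CMT, which gives a ratio of 214 for CM over IM (59.0 to 1773) and puts CMT 11.04-fold below CM (7.68 to 16.4). In CMT over IM its ratio was 19.4 (4.93 to 167). SLC16A3, a monocarboxylate transporter often tied to lactate export, stood at 31.5 CPM in IM (522 counts), 73.2 CPM in CM (1384 counts) and 36.1 CPM in CMT (478 counts), with CM called above IM (2.32-fold, 2.10 to 2.57). SLC5A12, the more abundant sodium-coupled lactate carrier by counts, stood at 1337, 920 and 1290 CPM and was not called. Over the 23 compared genes of the list, CM against IM gave 2 higher and 1 lower calls, CMT against CM also 2 and 1, and CMT against IM 3 and 0. The list medians were -0.24, 0.01 and -0.03 on the log2 scale in that order. The lowest value in CMT over IM was that of LDHA, a log2 fold of -0.61.

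For the steps that glycolysis and gluconeogenesis share, 0 of 9 compared genes were called in any comparison, and the median log2 fold was 0.12 in CM over IM, -0.10 in CMT over CM and -0.02 in CMT over IM. The extremes were ENO2 and ENO3, the neuronal and muscle enolases, in CM over IM (log2 fold of 0.72 and -0.13) and in CMT over IM (0.72 and -0.40), and ENO2 and ENO1 in CMT over CM (0.01 and -0.32). ENO2 rested on 37, 71 and 50 counts, and its fold was 1.68 in CM over IM (1.11 to 2.57) and 1.69 in CMT over IM (1.08 to 2.66).

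Glucose release was represented by other genes than G6PC. SLC37A4, which carries glucose 6-phosphate into the endoplasmic reticulum, stood at 499 CPM in IM (8264 counts), 429 CPM in CM (8102 counts) and 626 CPM in CMT (8288 counts). G6PC3, the widely expressed phosphatase, stood at 39.9, 38.9 and 38.0 CPM, and SLC2A2, the basolateral glucose transporter GLUT2, at 15.8, 12.8 and 19.6 CPM. None of these 4 compared genes, SLC2A1 being the other, was called in any comparison. SLC2A2 gave the lowest log2 fold in CM over IM (-0.30) and the highest in CMT over CM (0.61). FBP2, the muscle isoform, had 0 counts in IM, 1 in CM and 2 in CMT and was too low to compare, and G6PC2 had 0 counts in all 3, where 3 counts, the limit that 0 allows, would be 0.181, 0.159 and 0.227 CPM.

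Enzymes of the malate and aspartate shuttle and the citric acid cycle, through which oxaloacetate leaves the mitochondrion, gave 0 calls among 16 genes in each comparison. Their log2 folds ran from -0.59 (SLC25A13) to 0.44 (SUCLG2) in CM over IM, from -0.28 (MDH1) to 0.63 (SLC25A1) in CMT over CM, and from -0.50 (GOT1) to 0.44 (SLC25A1) in CMT over IM.

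The fructose list, which holds the steps around KHK, had 11 compared genes, of which 0 were called in any comparison. GLYCTK, the glycerate kinase, stood at 103, 178 and 87.2 CPM, with CM above CMT by 2.04-fold (1.91 to 2.18), short of the rule. SLC2A5, the fructose transporter GLUT5, stood at 61.7, 88.3 and 51.8 CPM. CM was the highest library for both. TKFC, the triose kinase that acts further down the route of fructose, stood at 299, 322 and 255 CPM. Log2 folds ran from -0.57 (GCKR) to 0.79 (GLYCTK) in CM over IM, from -1.03 (GLYCTK) to 0.95 (GCKR) in CMT over CM, and from -0.25 (SLC2A5) to 0.55 (HK3, a hexokinase) in CMT over IM.

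The opposing, glycolytic steps gave 0 calls among 10 genes in each comparison. PFKFB2, a bifunctional enzyme that sets the level of the FBP1 inhibitor fructose 2,6-bisphosphate, stood at 34.97, 17.6 and 25.2 CPM in IM, CM and CMT. It gave the lowest log2 fold of the list in CM over IM (-0.98) and in CMT over IM (-0.47). PFKFB3, of the same family, gave the highest in CM over IM (0.45) and the lowest in CMT over CM (-0.43), where HK3 gave the highest (0.76).

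For glycerol, 8 genes gave 1 call over the 3 comparisons. LIPE, a hormone-sensitive lipase, stood at 5.31, 2.75 and 9.67 CPM in IM, CM and CMT with CMT above CM by 3.52-fold (2.53 to 4.95). In CM over IM the list ran from a log2 fold of -0.92 (LIPE) to 0.70 (AQP7), and 6 of 8 were below 0. AQP7 gave the lowest value in CMT over CM (-0.20), and GPD1L (-0.42) and LIPE (0.85) were the extremes in CMT over IM. GK, the glycerol kinase, stood at 169, 146 and 136 CPM.

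**Figure D4:**
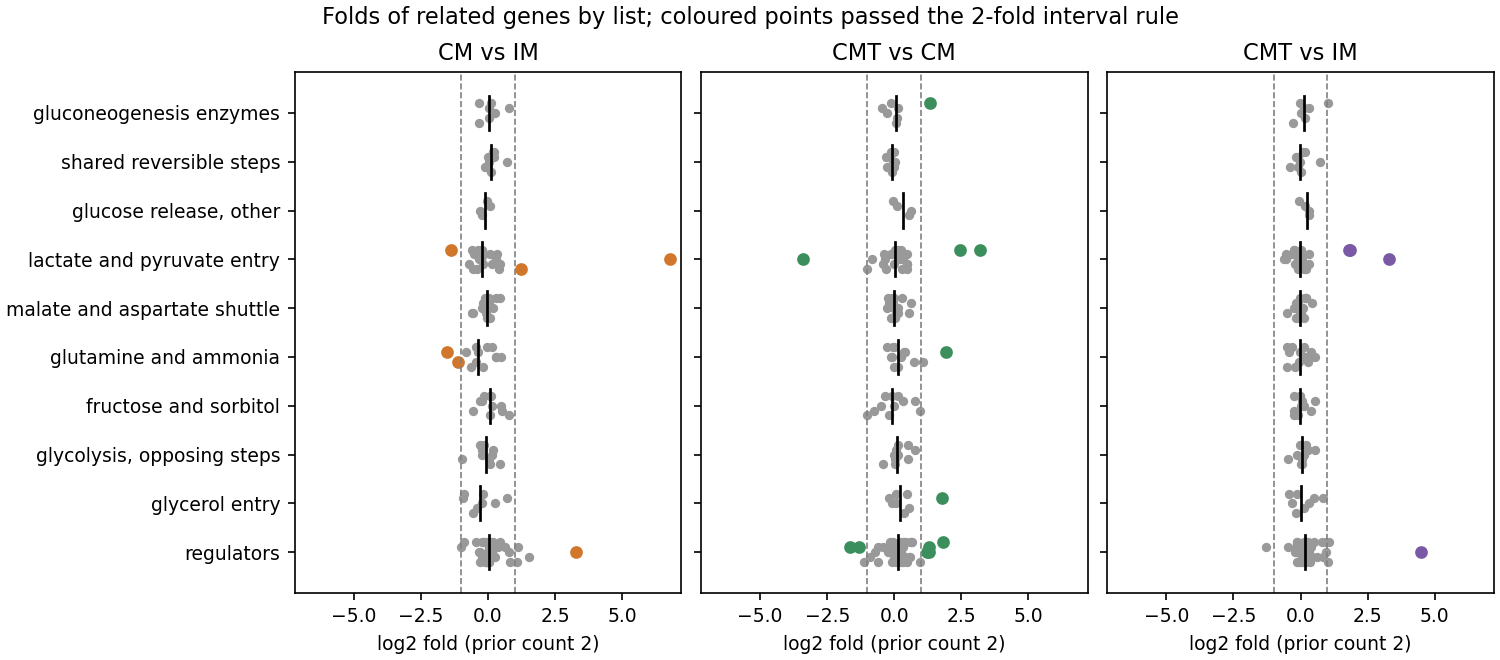
log2 fold (prior count of 2) of each compared gene in the members' list and the 9 lists of related genes, for the 3 comparisons; coloured points were called, grey points were not, black ticks mark list medians and dashed lines mark 2-fold. List medians lie between -0.38 and 0.33, and calls are single genes such as SLC5A8, PDK4, PDHB, GLUL and CREB3L3.

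The 48 compared regulators of the pathway gave 1 higher and 0 lower calls in CM over IM. They gave 4 and 2 in CMT over CM, and 1 and 0 in CMT over IM. Of all genes, 1.20% were called upward and 1.52% downward in CM over IM, and 1.84% and 1.11% in CMT over CM. For CMT over IM these shares were 0.905% and 0.595%. CREB3L3, a liver- and gut-type transcription factor of the CREB3 family, stood at 2.11 CPM in IM (35 counts), 21.7 CPM in CM (411 counts) and 50.4 CPM in CMT (667 counts). CM exceeded IM by 10.3-fold (7.28 to 14.97) and CMT exceeded IM by 23.8-fold (17.0 to 34.5). Its call in CMT over CM (2.32-fold, 2.05 to 2.63) was lost when libraries were scaled by total counts (2.21-fold, 1.95 to 2.503) and by totals without the 20 most abundant genes (2.19-fold, 1.94 to 2.49).

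The other regulators called above CM in CMT were NR1H4, the bile acid receptor FXR (57.8, 28.4 and 69.6 CPM in IM, CM and CMT), NR0B2, known as a target of that receptor (1.75, 0.899 and 3.48 CPM), and ATF3, a stress-induced factor (53.8, 42.3 and 103 CPM). Their folds were 2.45 (2.20 to 2.73), 3.86 (2.17 to 7.19) and 2.45 (2.24 to 2.67). The NR0B2 and ATF3 rows carried numbered identifiers, and their symbols were looked up. PPARA, the fatty acid receptor (14.1, 18.1 and 5.74 CPM), was called below CM in CMT by 3.16-fold (2.46 to 4.11), as was SREBF1, which drives lipid synthesis (35.1, 77.0 and 31.1 CPM), by 2.48-fold (2.22 to 2.77). In CM over IM SREBF1 stood at 2.19-fold (1.99 to 2.42), a value called under the same 2 scalings that removed CREB3L3.

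Several receptors and factors known to act on PCK1 were not called. HNF4A, a proximal tubule factor, stood at 883, 868 and 918 CPM in IM, CM and CMT. NR3C1, the glucocorticoid receptor, stood at 39.7, 39.8 and 34.1 CPM, FOXO1 at 21.3, 22.2 and 25.5 CPM, and CRTC2, a coactivator of the cyclic AMP pathway, at 30.9, 34.6 and 36.0 CPM. Other uncalled regulators of the list moved more than these. CEBPD stood at 1.58-fold in CMT over CM (1.49 to 1.69), and CEBPA at 1.75-fold in CM over IM (1.49 to 2.06). NR4A1, a nuclear receptor induced by cyclic AMP, stood at 30.8, 31.6 and 62.1 CPM, or 2.02-fold in CMT over IM (1.80 to 2.26), short of the rule. The lowest log2 folds of the list were those of NR1H4 in CM over IM (-1.02) and PPARA in CMT over IM (-1.28).

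Over all 9 lists, 139 genes other than the members were compared. CM against IM gave 3 higher and 3 lower calls, or 2.16% in each direction beside 1.20% of all genes upward and 1.52% downward. CMT against CM gave 8 and 3, or 5.76% and 2.16% beside 1.84% and 1.11%. CMT against IM gave 4 and 0, or 2.88% upward beside 0.905%. The lists were chosen with results of these data known, so these shares are a description. The same shares of all genes apply beside each single list, and 0 calls in a short list does not mark it as stable. The medians of the 139 genes were -0.01, 0.04 and 0.06 on the log2 scale.

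Among 7625 other genes with a symbol, typed as mRNA and with a mean of at least 10 CPM, the profiles nearest to PCK1 over the 3 libraries were found by the distance between centred log2 levels. The nearest was EGR1, an immediate early transcription factor, at a distance of 0.0279 and with 69.8, 53.7 and 137 CPM in IM, CM and CMT. JAG2, a Notch ligand, came next at 0.0358 (8.52, 6.77 and 17.8 CPM), followed by ATF3 at 0.0506. NCALD, a neuronal calcium sensor, lay at 0.068 (68.4, 57.3 and 138 CPM), and SLC25A34, a mitochondrial carrier family member, at 0.0997 (62.0, 53.9 and 132 CPM). In all, 17 genes lay within 0.25. With 3 libraries, nearness describes their order and spacing only.

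The labelled tissue was checked against markers of kidney cells. Summed levels of 11 early proximal tubule markers were 10929 CPM in IM, 10867 CPM in CM and 10436 CPM in CMT, and 0 of 11 were called in any comparison. For 8 late proximal tubule markers the sums were 24264, 30960 and 23223 CPM, and 1 of 8, the transporter SLC22A7, was called, with CM above IM and above CMT. GPX3, a secreted glutathione peroxidase, made up 86.7% to 93.9% of the late marker counts. Without it the other 7 late markers summed to 3221, 1891 and 2682 CPM, so that CM turned from highest to lowest. In such bulk tissue, fewer cells of a type and less RNA per cell cannot be told apart. Per count of all these proximal tubule markers, there were 0.194 counts of PCK1 in IM, 0.129 in CM and 0.407 in CMT, which puts CMT 3.16-fold above CM. For PCK2 these values were 0.0205, 0.0296 and 0.0268, with CM 1.45-fold above IM. These values move with GPX3. Per count of the early markers alone, a reference chosen after seeing the data, PCK1 in CMT lay 2.65-fold above CM, and PCK2 in CM lay 1.73-fold above IM. With both marker lists but without GPX3 the values were 2.47-fold and 1.91-fold. The order of the libraries for PCK1 and for PCK2 was the same under all 3 references.

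PCK1 is also a gene of liver and fat. Of 10 hepatocyte markers 9 were found and 5 were compared, with CPS1 at 0 counts in all 3 libraries and CYP7A1 at 1, 1 and 3 counts in IM, CM and CMT. The 9 markers summed to 151, 77.2 and 126 CPM. ALB stood at 118, 1.27 and 30.5 CPM, with IM highest, and made up most of the sum in IM. The low sum in CM was thus that of ALB, which was called lower in CM than in IM (92.9-fold, 62.2 to 145). TTR stood at 8.03, 25.9 and 58.6 CPM, with CMT highest, and APOA1 at 15.8, 39.1 and 24.4 CPM, with CM highest. Both were called above IM in CM. These and the other compared markers, FGB and TAT, were all lowest in IM. Of 5 adipocyte markers 4 were found, with ADIPOQ and LEP at 0 counts in all libraries. PLIN1, which coats lipid droplets, stood at 1.03, 0.688 and 1.74 CPM on 17, 13 and 23 counts, with CMT highest and CM lowest as for PCK1. CIDEC, another lipid droplet gene, stood at 13.5, 6.61 and 8.54 CPM, with IM highest. Immune cell markers summed to 57.8, 73.9 and 79.9 CPM, but their order was not shared. C1QA (20.8, 24.3 and 36.9 CPM), CD14, CD3E and LYZ were highest in CMT, and PTPRC, CD3D, CD79A and ITGAM in CM. Several of these orders were within counting error. Examples are CD3E in CMT over IM (1.03-fold, 0.742 to 1.41) and CD14 in CMT over CM (1.16-fold, 0.930 to 1.44). The same held for CD3D in CM over CMT (1.38-fold, 0.939 to 2.07), and LYZ had only 24, 22 and 20 counts. CD79A was called lower in CMT than in CM (0.604 and 2.86 CPM). Loop of Henle markers summed to 7118, 8074 and 9389 CPM. Most of the loop of Henle sum was UMOD, and the other 6 summed to 1402, 1167 and 1411 CPM, with CM lowest. Among them TMEM207 was called lower in CM than in IM (2.80 and 9.12 CPM). Of 11 collecting duct and intercalated cell markers, only SLC26A4 was called, with CM below IM and below CMT (42.3, 10.4 and 29.9 CPM in IM, CM and CMT). No compared marker of distal convoluted tubule, podocyte, endothelium or stroma was called. All 4 compared distal convoluted tubule markers were lowest in CM, and all 7 podocyte markers were higher in CMT than in IM. The part of these other cell types in the members' values was not tested.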

How the data were processed

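The authors deposited raw counts per gene for 3 pooled kidney libraries. Per the labels' protocols, RNA was extracted with TRIzol, pooled by group and prepared with an Ion total RNA kit, whereas the design text names an Illumina instrument and triplicates; only 1 column per group was used. The submitters' processing notes name FastQC. For the aligner, the counter, strandedness, build and annotation: not given in the sources used here. No coordinates are therefore printed, and it is unknown how reads shared by similar genes were handled.

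TMM factors were computed with edgeR 4.0.16 in R 4.3.3 (1.01 for IM, 1.02 for CM, 0.973 for CMT), and edgeR was used for nothing else except upper-quartile factors. Genes with a mean of at least 1 scaled CPM were compared. Intervals of folds are Clopper-Pearson intervals of the share of counts (scipy 1.17.1), and those of within-library ratios are conditional odds ratio intervals. Both reflect counting error alone and take reads as independent, although reads need not stand for independent molecules. Log2 folds used a prior count of 2. Symbols for numbered rows came from the RefSeq table of Sscrofa11.1. The fold and interval code was tested on simulated data.

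Members, lists and pairs were chosen with earlier results of these data known. The rule for named genes took all members, each list gene called in a comparison, the extremes of each list, the partner of each ratio and the 5 nearest profiles of each called member. Further list genes were named for their role in the pathway, after their values were seen. Pairs with G6PC were not computed. Some genes of the lists, and the pairs that hold them, are not reported here and enter no list count. No protein or promoter sequence was used here.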

Additional observations from a re-analysis of the deposited data

How the results depend on the processing

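Without replicates, neither a test nor a fit that leaves out a sample was possible. PCK1 in CMT over CM was called under all 9 alternatives, but only the 4 other scalings and mRNA rows only could have removed this call. A limit at 1.5-fold or a fold without its interval cannot remove a call. The 2 filter settings could not change any call of a member. For CM against IM, 1 member, PCK2, was called with the limit at 1.5-fold and 0 under the other 8. For CMT against IM, 1 member, PCK1, was called with median-of-ratios size factors from DESeq2 1.42.0, with the limit at 1.5-fold and by the fold without its interval, and 0 under the other 6. The count of all genes called moved with the rule and the filter. A fold beyond 2 without its interval gave 1020 genes for CM over IM, 1103 for CMT over CM and 764 for CMT over IM, in place of 420, 456 and 232. The limit at 1.5-fold gave 963, 974 and 579, and a mean of at least 5 CPM, which leaves fewer genes to compare, gave 271, 300 and 132. The 4 other scalings, no filter and mRNA rows only kept each of these counts within 1.5 times. Of the members' folds, 2 changed sign under a scaling, both near 0: FBP1 in CMT over IM and GLUD1 in CMT over CM. Adding 0.5 to each count left all 27 within-library ratios inside their intervals. Counts this large, the lowest being 392 for LDHA in CMT, fixed that outcome beforehand, so it is no check. Leaving GPX3 or all late markers out of the proximal tubule reference, chosen after seeing the data, changed no direction of PCK1 or PCK2. The sizes did move. Per count of all these markers PCK1 in CM lay 1.51-fold below IM, against 1.26-fold with the early markers alone and 1.14-fold without GPX3.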
